A study of Sus scrofa with 6 samples.

Results

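Expression of cholesterol synthesis genes was examined in the left ventricular (LV) free wall of piglets that had received doxorubicin (Dox). The set comprised 8 gene symbols, HMGCS1, IDI1, FDPS, FDFT1, SQLE, LSS, DHCR7 and SREBF2, and its members were all probe sets of the Affymetrix Porcine Genome Array that the platform annotation assigns to 1 of these symbols alone. Of the 8 symbols, 5 had a probe set and 3 (IDI1, LSS and DHCR7) had none and are not analysed here. The members were therefore 8 probe sets of 5 genes, 4 of them for SREBF2, of 23999 probe sets tested, of which 10069 carry the name of a single gene (6765 genes in all). Although the set was named for cholesterol synthesis and uptake, none of its symbols is an uptake receptor, and uptake genes are given below as neighbours of the pathway.

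Cells make cholesterol from acetyl-CoA through mevalonate, isoprenoid units and squalene, and they take it up from circulating lipoproteins through receptors at the cell surface. When sterols in the membrane of the endoplasmic reticulum are low, SCAP escorts the precursor of SREBP2, the product of SREBF2, to the Golgi, where it is cleaved into an active transcription factor. SREBP2 then activates the genes of nearly all enzymes of the pathway as well as genes of lipoprotein uptake, whereas INSIG proteins hold SCAP back when sterols are plentiful. In heart muscle the isoprenoid intermediates also feed the synthesis of coenzyme Q and the lipid anchors of small GTPases.

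The Dox-injected group comprised 3 Large White piglets that each received Dox intravenously, once; Dox is an anthracycline used against tumours, and it damages heart muscle. The PBS-injected group comprised 3 Large White piglets that received the saline buffer alone. Per the labels the dose was 2.0 mg/kg at 8 days of age, and the LV free wall was sampled after a further 3 weeks, in animals 28 days old. The paper's methods give a dose range and a slightly different schedule. Each piglet had an array of its own, and the labels do not say whether piglets shared a litter, a hybridization day or a scan. Each value is a MAS5 signal, the linear intensity that the Affymetrix software assigns to a probe set, and log2 signals were compared with limma. Calling a gene required a 2-fold difference or more together with an adjusted p no higher than 0.05.

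The tissue carried the transcripts of working myocardium on every array. Of 12 cardiomyocyte markers 10 had a probe set, and their summed signal was 48033.5 to 62560.6 in Dox-injected and 40037.8 to 48612.7 in PBS-injected piglets. Background was read from the Tag probe sets, whose artificial sequences match no pig transcript. They reached 2.5 to 6.3 on the 6 arrays, and signals that did not exceed the brightest of them on the same array are described as within the Tag range. Ratios of 3′ to 5′ signal, a measure of RNA integrity, overlapped between the groups for 5 of 5 pairs of control probe sets. They were not even among the arrays, and Dox replicate 1 had the highest ratio at most pairs. At the EF1A pair its ratio was 11.6, against 4.24 to 4.86 on the other arrays. At an actin pair PBS replicate 2 was highest, with 121 against 76.9 in Dox replicate 1. Dox replicate 3 was the array least like the others. Its log2 signals had a mean correlation of 0.901 with those of the other arrays, against 0.931 to 0.945 for the rest. Its median signal was also the lowest, 13.5 against 15.2 to 17.8. Precision is limited by the number of arrays, and with 3 piglets in each group the smallest two-sided p of an exact permutation test is 0.1. Whole tissue was measured, so fewer cells of a type and less RNA per cell cannot be told apart.

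Of the 5 genes measured, SREBF2, HMGCS1, FDPS and SQLE had lower signals in the Dox-injected group than in the PBS-injected group, by geometric mean, and FDFT1 had higher signals, a direction that turned when single arrays were left out. None was called (0 of 5, against 0.0% of all probe sets). SREBF2, at its brightest probe set, showed the largest difference of the 5, and it was the only member whose groups did not overlap (1 of 5; 10.1% of all probe sets, and 12.9% of the 14015 that exceeded the Tag range on every array, were lower in every Dox-injected piglet). It was also the only member that passed 0.05 in limma before adjustment, as did 5.92% of all probe sets, and 7.36% of the brighter ones, with lower signals in Dox-injected piglets. Of all probe sets 57.1% had a log2 difference below 0, and of the brighter ones 61.2%, beside 4 of 5 members. The median log2 difference of the 5 genes was -0.53, beside a median of -0.10 over all probe sets.

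**Figure D1:**
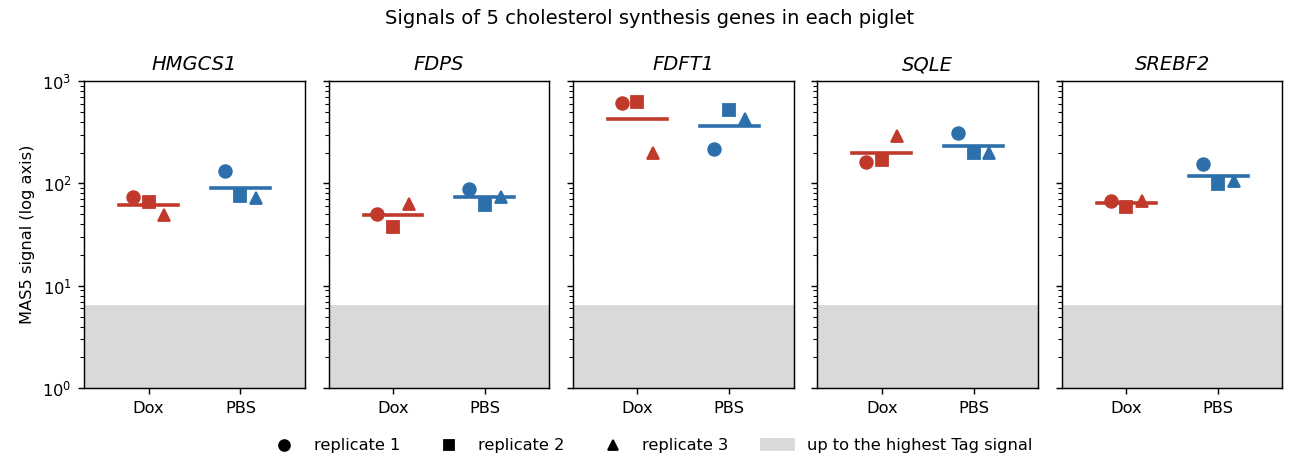
MAS5 signal (log axis) of the 5 measured genes in each piglet, at the brightest probe set of each gene, with Dox-injected piglets in red on the left and PBS-injected piglets in blue on the right; lines are geometric means of 3 arrays and the grey band reaches to 6.3, the highest Tag signal of any array. All points lie above the band, and the groups are separate for SREBF2 alone.

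SREBF2, the gene of the transcription factor that drives the pathway, had signals of 67.9, 59.2 and 67.9 in Dox-injected piglets, against 156, 98.3 and 106 in PBS-injected piglets. Every Dox-injected piglet lay below every PBS-injected piglet, and the Dox-injected piglets also lay closer together. The mean signal was 65.0 ± 5.02 in Dox-injected and 120 ± 31.3 in PBS-injected piglets (SD, n = 3 each). The log2 difference was -0.86 (standard error 0.25, 95% interval from -1.43 to -0.28), a ratio of 0.552. Over all probe sets it was not called (adjusted p = 0.521 from limma), and the exact permutation test gave p = 0.1, the smallest that this design allows. A log2 difference as low or lower was found for 13.4% of all probe sets, and for 7.42% of the brighter ones. Leaving out single arrays moved the SREBF2 difference between -0.99 and -0.65.

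The other SREBF2 probe sets were dim and gave no measurement of comparable precision. One had signals of 2.3, 3.3 and 4.4 in Dox-injected and 2.3, 4.3 and 4.6 in PBS-injected piglets, and 4 of the 6 arrays read it within the Tag range. Another had signals of 5, 0.5 and 8.7 in Dox-injected and 3.5, 6.4 and 2.7 in PBS-injected piglets, with a log2 difference of -0.49 whose 95% interval from limma ran from -2.83 to 1.85. The last had signals of 0.4, 1.1 and 0.5 in Dox-injected and 1.3, 4.9 and 0.1 in PBS-injected piglets, never above the Tag range. The groups overlapped at all of these 3 probe sets. When all 4 probe sets were averaged, the SREBF2 difference was -0.50 and its groups overlapped.

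HMGCS1 encodes the cytosolic synthase that acts early in the pathway, on the way to mevalonate. Its signals were 74, 66.2 and 48.7 in Dox-injected piglets, against 131, 75.6 and 71.9 in PBS-injected piglets. The groups overlapped by a narrow margin, since Dox replicate 1 lay just above PBS replicate 3, and PBS replicate 1 stood well above all others. The mean was 63.0 ± 13.0 in Dox-injected and 92.8 ± 33.1 in PBS-injected piglets (SD, n = 3 each), a log2 difference of -0.53 (standard error 0.31, 95% interval from -1.23 to 0.18, adjusted p = 0.591 from limma). It was -0.25 without PBS replicate 1 and -0.35 without Dox replicate 3. The interval spans 0, and the difference depended on PBS replicate 1 more than on any other array.

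FDPS encodes the synthase that joins isoprenoid units into farnesyl diphosphate, the branch point towards sterols, coenzyme Q and prenylated proteins. Its signals were 50.6, 37.8 and 62.7 in Dox-injected piglets, against 87.8, 61.9 and 74.1 in PBS-injected piglets. The groups nearly separated, with only Dox replicate 3 and PBS replicate 2 out of order. The mean was 50.4 ± 12.5 in Dox-injected and 74.6 ± 13.0 in PBS-injected piglets (SD, n = 3 each), a log2 difference of -0.58 (standard error 0.28, 95% interval from -1.23 to 0.06, adjusted p = 0.543 from limma). It ranged from -0.76 without Dox replicate 3 to -0.39 without Dox replicate 2.

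FDFT1 encodes squalene synthase, the first enzyme committed to sterols. Its signals were 616, 619 and 197.1 in Dox-injected piglets, against 217.1, 517 and 428.1 in PBS-injected piglets. Each group held a piglet with a low signal, Dox replicate 3 and PBS replicate 1, and the other piglets were all above both. The log2 difference of 0.22 (standard error 0.49, 95% interval from -0.89 to 1.32, adjusted p = 0.894 from limma) was smaller than its error. It was 0.76 without Dox replicate 3 and -0.16 without PBS replicate 1, and it was also below 0 when Dox replicate 1 (-0.06) or Dox replicate 2 (-0.06) was left out and with the arrays scaled on the hybridization controls (-0.25). These controls are labelled transcripts added to each hybridization, they were 1.38-fold brighter on the Dox arrays, and scaling on them moved the median log2 difference of all probe sets to -0.57. No direction is read for this gene.

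SQLE encodes squalene epoxidase, which adds the first oxygen to squalene and is a second control point of the pathway. Its signals were 161.7, 169.1 and 287.5 in Dox-injected piglets, against 313.6, 199.5 and 199.7 in PBS-injected piglets. Dox replicates 1 and 2 lay below every PBS-injected piglet, and Dox replicate 3 lay above PBS replicates 2 and 3. The log2 difference was -0.22 (standard error 0.29, 95% interval from -0.89 to 0.45, adjusted p = 0.809 from limma). It was -0.01 without PBS replicate 1, -0.07 without Dox replicate 1, -0.11 without Dox replicate 2, whereas leaving out Dox replicate 3 gave -0.49.

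The members did not follow a common order among the piglets of a group. PBS replicate 1 had the highest signal of its group for 4 of 5 genes and the lowest for FDFT1. Among Dox-injected piglets, replicate 3 was highest for SQLE and FDPS, level with replicate 1 for SREBF2, and lowest for HMGCS1 and FDFT1. Without PBS replicate 1, the median log2 difference of the 5 genes was -0.25, against -0.53 with it.

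**Figure D2:**
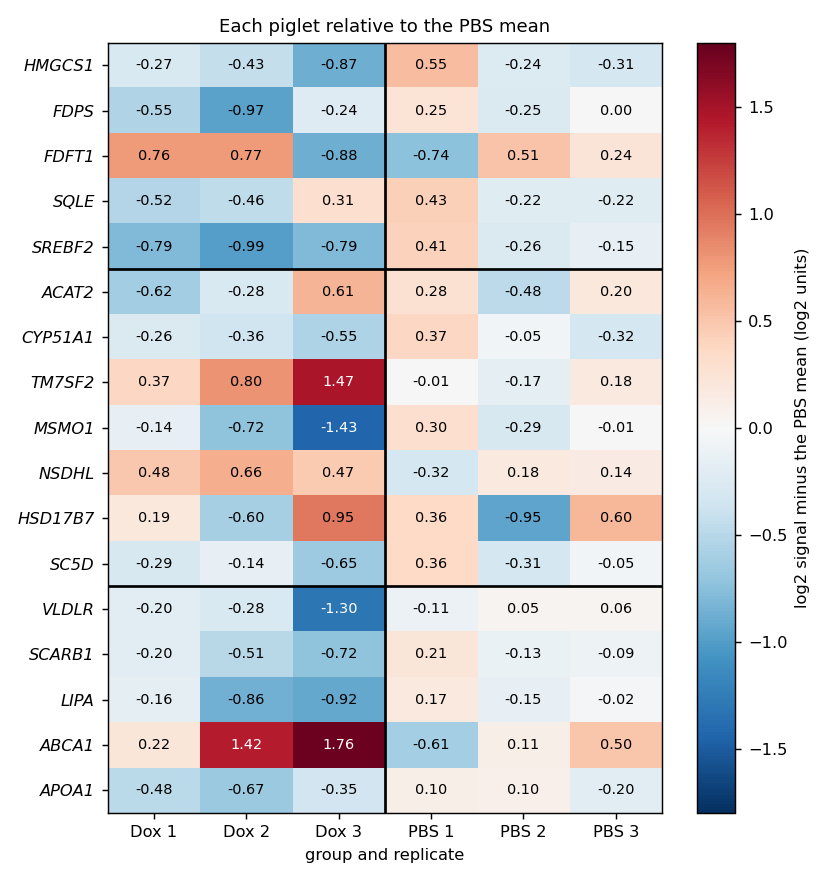
Log2 signal of each piglet minus the mean log2 signal of the PBS-injected group (columns are piglets by group and replicate, with Dox-injected piglets on the left), for the 5 members at the top, the other measured enzymes of the pathway in the middle, and genes of uptake and efflux at the bottom. SREBF2 is below the PBS mean by 0.79, 0.99 and 0.79 in the Dox-injected piglets, and PBS replicate 1 is above it for 4 of the 5 members.

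The remaining enzymes of the pathway were read from a list of 15, of which 7 had a probe set. None was called (0 of 7), 3 had a log2 difference above 0 and 4 below 0, and the median was -0.10, equal to 2 decimals to that of all probe sets. TM7SF2, which encodes a sterol reductase acting after lanosterol demethylation, was the only one to pass 0.05 in limma before adjustment, in the direction opposite to SREBF2. Its signals were 65.1, 88 and 140 in Dox-injected piglets, against 50.2, 44.8 and 57 in PBS-injected piglets. All Dox-injected piglets lay above all PBS-injected piglets (log2 difference 0.88, standard error 0.32, 95% interval from 0.16 to 1.60, adjusted p = 0.521 from limma; 6.19% of all probe sets, and 7.18% of the brighter ones, were higher in every Dox-injected piglet). The difference was 0.59 without Dox replicate 3.

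Among the other enzymes the direction also varied, and in 1 case it varied between probe sets of a gene. MSMO1, a sterol demethylation enzyme, had signals of 171.2, 114.9 and 70.3 in Dox-injected piglets, against 232.9, 154.4 and 188.4 in PBS-injected piglets, and the groups overlapped (log2 difference -0.76, 95% interval from -1.53 to 0.0037, adjusted p = 0.523 from limma). NSDHL, which acts in the same demethylation, had a log2 difference of 0.54 at its brightest probe set with no overlap between groups, and of -0.64 at its other probe set with overlap. CYP51A1 and SC5D, the lanosterol demethylase and a sterol desaturase, had log2 differences of -0.39 and -0.36 with overlapping groups. ACAT2 and HSD17B7 had log2 differences of -0.10 and 0.18. Over the 11 enzymes measured, members included, 4 had a log2 difference above 0 and 7 below 0, with a median of -0.22.

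**Figure D3:**
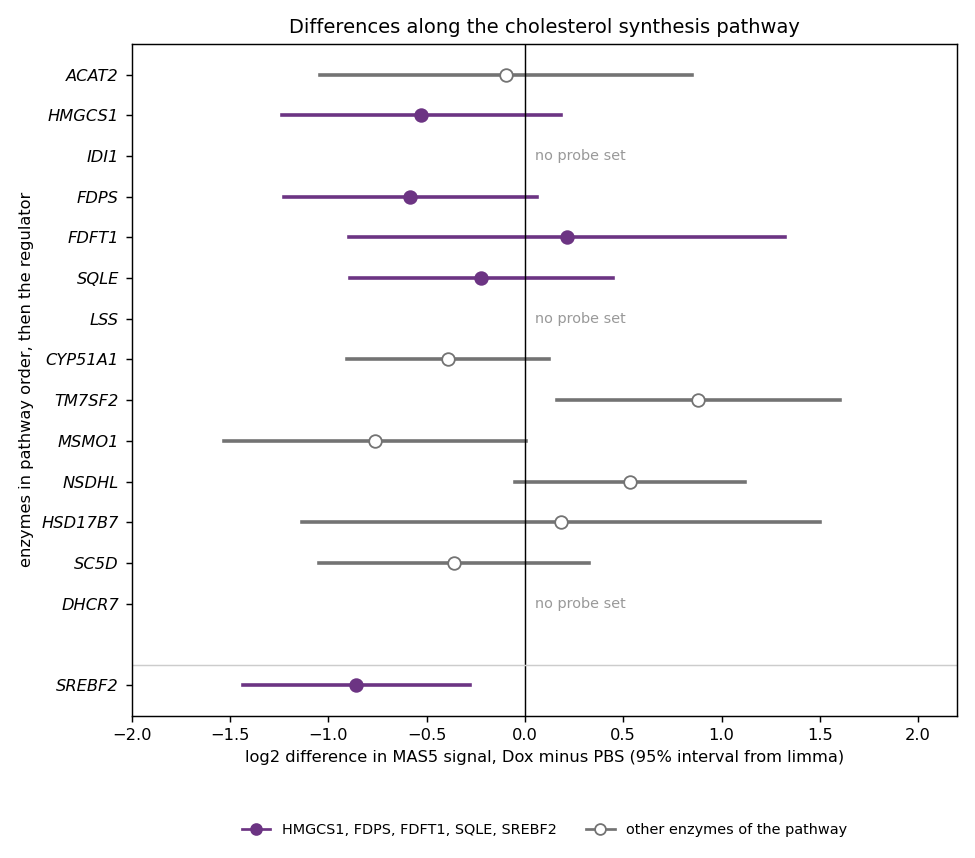
Log2 difference in MAS5 signal, Dox-injected minus PBS-injected group (horizontal axis, 95% interval from limma) for each measured enzyme in pathway order and, at the bottom, SREBF2; filled points are members, open points are other enzymes, and the members without a probe set (IDI1, LSS and DHCR7) are marked. Before adjustment the interval lies wholly below 0 for SREBF2, at -0.86, and wholly above 0 for TM7SF2, at 0.88.

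None of the measured genes that control SREBP cleavage was called. SCAP, the sterol-sensing escort, had signals of 190, 178.2 and 111.1 in Dox-injected piglets, against 160.6, 175.5 and 173.5 in PBS-injected piglets (log2 difference -0.13, 95% interval from -0.69 to 0.44, adjusted p = 0.878 from limma), and the difference was 0.12 without Dox replicate 3. INSIG1, a retention protein that is itself a target of SREBP2, had signals of 79.5, 122.2 and 200.5 in Dox-injected piglets, against 132.2, 94.5 and 124.8 in PBS-injected piglets (log2 difference 0.11, 95% interval from -0.67 to 0.89, adjusted p = 0.928 from limma). Dox replicates 1 and 3 lay on opposite sides of the whole PBS-injected group, and the INSIG1 difference was -0.23 without Dox replicate 3, -0.04 without PBS replicate 2 and -0.36 with the arrays scaled on the hybridization controls. A further INSIG1 probe set had signals of 1.8, 2.4 and 2 in Dox-injected piglets, against 1.1, 0.4 and 0.4 in PBS-injected piglets, and although these groups did not overlap, none of the 6 signals exceeded the Tag range. Averaged over both probe sets, the INSIG1 difference was 0.99. INSIG2 had a log2 difference of -0.42 (95% interval from -1.13 to 0.29, adjusted p = 0.65 from limma). SREBF1, the gene of the related factor that favours fatty acid synthesis, had signals of 6.8, 12.4 and 8.8 in Dox-injected piglets, against 12, 8.3 and 12.7 in PBS-injected piglets, and they overlapped (log2 difference -0.26, adjusted p = 0.852 from limma). The SREBF1 difference was -0.05 without Dox replicate 1, -0.48 without Dox replicate 2, -0.45 without PBS replicate 2 and -0.14 without PBS replicate 3. Of the 11 regulators listed, 5 were measured, 0 were called and 4 had a log2 difference below 0. Of 10 fatty acid targets of SREBP1, 9 were measured, 0 were called, 3 had a log2 difference above 0 and 6 below 0, and the median was -0.13. One of the 3 above 0, ACACA, exceeded the Tag range on just 1 array, and without it the median was -0.17.

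Genes of cholesterol uptake and intracellular transport were measured for 7 of 15 symbols. None was called (0 of 7), 4 had a log2 difference below 0 and 3 above 0, and the median was -0.48. LIPA, the lysosomal lipase that frees cholesterol from internalized lipoproteins, had signals of 101.8, 62.6 and 60 in Dox-injected piglets, against 127.6, 102.3 and 112 in PBS-injected piglets. All Dox-injected piglets lay below all PBS-injected piglets, although the signals 101.8 and 102.3 were nearly equal (log2 difference -0.65, 95% interval from -1.26 to -0.03, adjusted p = 0.521 from limma), and the second LIPA probe set had a log2 difference of -0.23 with overlapping groups. VLDLR and SCARB1, receptors for lipoproteins of very low and of high density, were also lower in every Dox-injected piglet at their brightest probe sets. Thus 3 of 7 uptake genes were lower without overlap, beside 10.1% of all probe sets and 12.9% of the brighter ones. Over the 34 genes measured on the 5 neighbouring lists together, 4 were lower and 3 higher without overlap. The uptake count is not read as a result about uptake genes. VLDLR had signals of 1213.4, 1151.3 and 566.2 in Dox-injected piglets, against 1292.3, 1448.6 and 1449.3 in PBS-injected piglets, with Dox replicate 3 far below the rest. SCARB1 had signals of 202.4, 163.9 and 141.4 in Dox-injected piglets, against 269.6, 213.2 and 219.3 in PBS-injected piglets. The log2 differences of VLDLR and SCARB1 were -0.59 (95% interval from -1.24 to 0.06, adjusted p = 0.541 from limma) and -0.48 (95% interval from -0.97 to 0.02, adjusted p = 0.531 from limma). At a second VLDLR probe set, above the Tag range on every array, the gene had a log2 difference of -0.18 with overlapping groups. NPC2, which hands cholesterol on within the lysosome, was higher in every Dox-injected piglet at its brightest probe set, by 0.11 on the log2 scale. Of all probe sets 6.19% were higher in every Dox-injected piglet, and 7.18% of the brighter ones. The other NPC2 probe sets, also above the Tag range on every array, had log2 differences of 0.36 and -0.32 with overlapping groups. The largest difference above 0 in this list was that of MYLIP, at 0.69 with overlapping groups.

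Genes of efflux and sterol sensing were measured for 6 of 9 symbols, with 0 called, 3 above 0 and 3 below 0. ABCA1, the transporter that loads cholesterol onto apolipoproteins, had signals of 50.4, 116 and 146.9 in Dox-injected piglets, against 28.5, 46.8 and 61.3 in PBS-injected piglets. The groups overlapped, since Dox replicate 1 lay between PBS replicates 2 and 3, and the log2 difference of 1.13 (standard error 0.45, 95% interval from 0.11 to 2.15, adjusted p = 0.521 from limma) was 1.59 without Dox replicate 1, 0.83 without PBS replicate 1 and 0.82 without Dox replicate 3. APOA1, which encodes the main apolipoprotein of high-density lipoprotein, had signals of 233.2, 205 and 256.2 in Dox-injected piglets, against 349.1, 348.5 and 284.8 in PBS-injected piglets. These groups did not overlap (log2 difference -0.50, 95% interval from -0.94 to -0.06, adjusted p = 0.521 from limma). Over the 34 genes of the 5 neighbouring lists, 0 were called, and before adjustment 2 passed 0.05 in limma with higher and 2 with lower signals in Dox-injected piglets, beside 3.62% and 5.92% of all probe sets (4.0% and 7.36% of the brighter ones).

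Markers of other cell types were read in the same piglets, and none was called (adjusted p of 0.521 or more from limma for each). Of 7 fibroblast markers 5 had a probe set, all 5 with a log2 difference below 0, and their summed signal was 874.4 to 2148.1 in Dox-injected and 2330.3 to 3186.7 in PBS-injected piglets. All 6 endothelial markers had a probe set, 5 with a log2 difference below 0, and their summed signal was 1144.5 to 1277.7 in Dox-injected and 1330.1 to 2003.2 in PBS-injected piglets, with PBS replicate 1 the highest. Of 6 leukocyte markers 3 had a probe set, all 3 with a log2 difference above 0 (0.57 to 1.72, the highest for PTPRC, which exceeded the Tag range on just 1 array), and their summed signal was 258.0 to 468.4 in Dox-injected and 195.4 to 273.0 in PBS-injected piglets, which overlapped. Summed signals also overlapped between the groups for the smooth muscle, adipocyte and red cell markers. Of the 10 cardiomyocyte markers measured, 0 were called, 8 had a log2 difference above 0 and 2 below 0, with a median of 0.27. Without overlap 4 of these 10 were higher in Dox-injected piglets, beside 6.19% of all probe sets and 7.18% of the brighter ones. No marker had a signal of 0 at its brightest probe set. The part of these cell types in the SREBF2 difference was not tested.

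**Figure D4:**
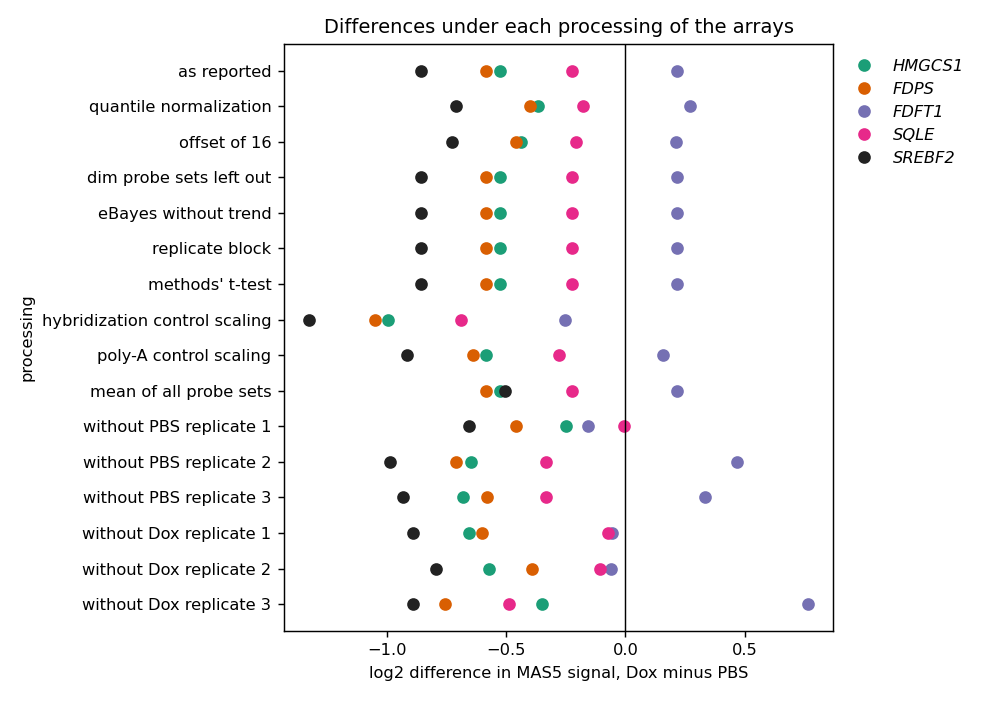
Log2 difference, Dox-injected minus PBS-injected group (horizontal axis) for the 5 members under each processing of the arrays (vertical axis). SREBF2, HMGCS1, FDPS and SQLE are below 0 throughout, SREBF2 between -1.32 and -0.50, whereas FDFT1 lies on both sides of 0.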

How the data were processed

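RNA of 6 piglets, extracted from the LV free wall, was labelled and measured on the Affymetrix Porcine Genome Array, each animal on an array of its own. The authors deposited linear intensities, computed for each probe set by MAS5 in GCOS (version 1.4 in the submitters' processing notes). Tested on the values, the 2% trimmed mean was 100.03 or 100.04 on each array. Signals of 0, found for 311 of 24123 probe sets, were raised to 0.1, the smallest other signal, before log2. The group difference was fitted with limma 3.58.1 in R 4.3.3 (lmFit; eBayes, trend by mean signal) on the 6 arrays together, and p-values were adjusted by Benjamini-Hochberg across the 23999 probe sets left after removal of 124 array controls. Of these, 10069 have 1 gene symbol in the platform annotation and 198 have several, which are not named. Where several probe sets carry a gene's name, the one of highest geometric mean represents it, and no probe set's level was set against another's. The threshold is that of the paper's methods, which credit the array statistics to the algorithms of Affymetrix Microarray Suite without giving the test between groups; the unpaired t-test they give for comparisons in general was run as an alternative. Besides the members, the genes named are those of the 5 pathway lists that passed 0.05 before adjustment, the main sterol regulators, and the 5 genes whose profile over the arrays was most like the members' mean. Other genes of these lists were named after their values were seen. The members, lists and tests were chosen with earlier results of these data known. The alternatives changed the normalization (quantile), the offset (16), the probe sets kept (those above the Tag range on at least 3 arrays), the variance trend (none), the block (replicate number), the test (the methods' t-test), the reading of a gene (averaged over its probe sets) or the arrays (each left out in turn). Scaling on the spiked controls was added after the data were seen. Scripts were tested on simulated data. Nothing in the labels says more than that each array is a separate animal, so the spread behind the p-values holds differences between animals and between their arrays together. In limma each variance is also drawn towards the trend over all probe sets. A shift shared by all arrays of a group, as seen for the hybridization controls, is not part of this spread. Plots were made in Python 3.11.15 (matplotlib 3.10.9).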

Additional observations from a re-analysis of the deposited data

Results flagged for a closer look

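The hybridization controls, biotinylated transcripts that are added in fixed amounts to each hybridization and were used above only for an alternative scaling, differed between the groups. All 27 of their 27 probe sets had a higher signal on every Dox array than on every PBS array. Their mean log2 difference was 0.47, a ratio of 1.38, and single probe sets ranged from 0.33 to 0.63. The poly-A controls had a mean log2 difference of 0.06, and 1 of their 36 probe sets was higher on every Dox array. Relative to the hybridization controls the median log2 difference over all probe sets was -0.57, and that of the 5 members was -0.99. The cause of the shift was not tested.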

How the results depend on the processing

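No member and no neighbouring gene was called under any of the 15 alternatives, and over the whole array 0 probe sets were called except without Dox replicate 1 (0 to 14 with 1 array left out; 2290 had an unadjusted p of at most 0.05 with limma and 1719 with the methods' t-test). SREBF2, HMGCS1, FDPS, SQLE, TM7SF2, LIPA, ABCA1 and APOA1 kept their direction in all 15. Not all of these could turn it. Changing the probe sets kept, the variance trend, the block or the test leaves the log2 difference of a gene as it was. Averaging over probe sets does so as well for genes with a single probe set. Scaling on either set of spiked controls lowers the log2 difference of every gene by the same amount, so it could not turn a gene already below 0. Over the alternatives the adjusted p of SREBF2 ranged from 0.216 to 0.823. The members' median was -0.99 with scaling on the hybridization controls and -0.65 to -0.25 with 1 array left out. The number of members whose groups did not overlap was 4 with scaling on the hybridization controls, 3 with scaling on the poly-A controls, 0 with the mean of all probe sets, and 1 to 4 with 1 array left out, where fewer arrays are compared. The share of all probe sets without overlap was not computed for these settings, so the counts are not read as a result about the members. Scaling on the hybridization controls lowered the whole array, and 4913 probe sets then had an unadjusted p of at most 0.05 with limma. Scaling on the hybridization controls turned FDFT1 to -0.25 and INSIG1 to -0.36. With 1 array left out FDFT1 ranged from -0.16 to 0.76, INSIG1 from -0.23 to 0.43 and SCAP from -0.27 to 0.12. Replicate numbers are shared by the groups, and the labels do not say whether they pair the piglets. The deviations of same-numbered arrays had correlations of -0.05, 0.06 and -0.11. With 3 arrays per group, such values cannot decide whether piglets were paired. With the replicate block the SREBF2 difference was -0.86, 0 probe sets were called and the members' median was -0.53. With 3 arrays per group, differences of the size of the members' standard errors are not resolved.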

Other observations

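The mean log2 signal of the 5 members was 6.91, 6.77 and 6.69 in Dox-injected piglets, against 7.37, 7.09 and 7.10 in PBS-injected piglets. Among 6884 named probe sets above the Tag range on all arrays, those whose log2 signal followed this profile most closely over the 6 arrays belonged to B3GNT5, TMEM151B, TCF19, SELENOW and NDUFA5, none of them a gene of the pathway lists. Their Pearson r with the profile was 0.998, 0.997, 0.995, 0.995 and 0.992, as a description of arrays that share their scaling, and 364 of the 6884 probe sets reached an r of 0.9. TCF19, for example, had signals of 22.3, 11.5 and 9.8 in Dox-injected piglets, against 108, 38.5 and 34.4 in PBS-injected piglets, with PBS replicate 1 the highest of all, as in the members' profile.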
